A study of Mus musculus with 10 samples.

Results

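The 42 genes described here encode the ionotropic and metabotropic glutamate receptors of the cortex, the auxiliary subunits of AMPA receptors and the scaffold proteins that hold these receptors at the postsynaptic density. They were taken by symbol from a list that was chosen with earlier results of these data known. The rule itself used no measured value but the total count, and each of the 42 was found among 19268 genes with a total count over 10. Counts came from the cortex of female mice aged 4 months, in 5 libraries that the study names 5XFAD;Neu cKO (labelled cKO) and 5 that it names 5XFAD. Mice of both groups carried the 5XFAD transgenes, which hold human genes with familial Alzheimer's mutations, placed in mouse Thy1 sequence and expressed in neurons. In the 5XFAD;Neu cKO group, floxed Idol (also named Mylip, a ubiquitin ligase for lipoprotein receptors) was to be deleted by Camk2a-Cre, a line driven mainly in excitatory neurons of the forebrain, so that other cells of the dissected cortex kept the gene. The 5XFAD group consisted of littermates, labelled WT after the names Idol and Camk2a-cre, and the labels do not state their Cre genotype separately. The labels number the libraries as replicates but do not tie them to single animals, so p-values measure the spread between these libraries. The comparison asks whether transcripts of the postsynaptic machinery differed between the groups.

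Glutamate released by excitatory terminals opens AMPA receptors, which carry the fast synaptic current, and NMDA receptors, which pass calcium when the membrane is depolarized. Kainate receptors modulate release and excitability, and metabotropic receptors signal through G proteins. Under the membrane, MAGUK proteins such as PSD-95 bind receptors and their auxiliary subunits, SAPAP proteins link MAGUKs to SHANK proteins, and SHANK proteins meet Homer, which connects to group I metabotropic receptors and actin regulators. Loss of synapses is an early feature of amyloid models, which is why these genes are of interest in 5XFAD cortex.

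The libraries were made with a QuantSeq 3′ kit, in which oligo(dT) primes at the poly(A) tail and each transcript gives reads only near its end. A count therefore does not grow with transcript length, and levels of different genes are compared below in CPM (counts scaled to a common library size, TMM-normalized) without division by length. The last 30 bases of the canonical transcript are shown for the 3 members with the smallest p-values and for the most abundant receptor subunit or scaffold of 3 classes. Such a kit is meant to give reads next to transcript ends. Where the counted reads lay within each gene was not examined, and the annotated gene of Dlgap1 extends past the printed end, to 71128409. Sequences are from GRCm39 on the strand of the transcript, written 5′ to 3′, and capitals mark the last AATAAA, or ATTAAA where there is none, the hexamers read by the cleavage machinery.
Shank3, chr15:89444435-89444464, plus strand: tattatgtAATAAAtttataagaaatgaaa
Grik5, chr7:24709269-24709298, minus strand: taaaaaaaagaacaaaaccccaaaactggg
Dlgap1, chr17:71123689-71123718, plus strand: ataacaataacaatAATAAAgtgtgcaaag
Gria2, chr3:80588757-80588786, minus strand: gattataagtcacccagcccctaaccagaa
Grin2b, chr6:135690231-135690260, minus strand: AATAAAgaaacctaccacaaattatcaggg
Dlg4, chr11:69938319-69938348, plus strand: actgcttttaattaaaaaaaATTAAAttca
AATAAA was found in this window, on the transcript's strand only, in 18 of the 42 members (42.9%) and in 42.1% of 19154 genes tested with an annotated end. With ATTAAA allowed as well, the shares were 57.1% and 53.9%. The windows printed for Grik5 and Gria2 hold neither hexamer.

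Reads on genes numbered from 4320504 to 7466192 per library. The targeted gene, Mylip, was not lower in the libraries labelled cKO: it was 14.8 ± 4.90 CPM (SD, n = 5) in libraries labelled cKO and 11.2 ± 2.27 CPM in 5XFAD (log2 fold change 0.39, SE 0.25, edgeR adjusted p = 0.777), and in a 3′ assay reads outside the floxed part need not report the deletion. Every direction below is therefore between libraries as labelled. Neuronal markers were abundant in each library. The summed level of 12 excitatory neuron markers was 4523 to 4997 CPM in libraries labelled cKO and 4602 to 5480 CPM in 5XFAD. The sum of 12 pan-neuronal markers was 4011 to 4424 and 4008 to 4535 CPM, and of 9 inhibitory neuron markers 582.0 to 726.4 and 593.2 to 709.7 CPM. Microglial markers were lower in the libraries labelled cKO, all 10 having a log2 fold change below 0 and 5 passing the threshold (sums of 259.9 to 315.6 CPM against 343.1 to 516.7 CPM, which did not overlap). In bulk tissue, fewer cells of a type and less RNA per cell cannot be told apart. The part that any of these shifts has in the values below was not tested. Among the 5XFAD libraries, replicate 2 stood apart in the base composition of what it counted, genes with GC-rich transcript ends lying 0.13 above their mean on the log2 scale and genes with GC-poor ends 0.080 below it (medians). It also had the highest sum of 6 hypothalamus and thalamus markers, 133.0 CPM against at most 68.1 CPM in any other library. Of the hypothalamic neuropeptide genes, Hcrt was at 23.5 CPM (at most 1.71 CPM elsewhere) and Pmch at 33.3 CPM (at most 9.16 CPM elsewhere). Oxt, at 34.3 CPM, was closer to the other libraries (at most 30.1 CPM). Avp (14.5 CPM), Tcf7l2 (22.1 CPM) and Prkcd (5.40 CPM) were higher in some other library, at up to 17.1, 31.2 and 14.1 CPM. The part of these levels in the values below was not tested. Without 5XFAD replicate 2 the log2 fold change reversed or moved by over 1.5 times in 22 of the 42 members, 17 of which were within 0.1 of 0 with it. Over the 10 fits that each left out a single library, 36 members reversed or moved this far in at least 1 fit. Such a count is not given here for each of the other libraries, which moved members as well. Without 5XFAD replicate 5, Grik4 went from -0.31 to -0.11 and Cacng2 from 0.16 to 0.067.

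None of the 42 members passed an adjusted p of 0.05 in edgeR's quasi-likelihood test, against 0.218% of all genes tested. By DESeq2 the count was also 0, against 0.379% of all genes, with a smallest adjusted p of 0.133 (Dlgap1) and no adjusted p given for 4 members (Grin2d, Grm2, Cacng8 and Homer3). At an unadjusted p under 0.05 there were 3 members, Shank3, Grik5 and Dlgap1, which is 3 of 42 beside 7.95% of all genes; DESeq2 added Gria1. All 3 had higher means in libraries labelled cKO, a direction in which 3.94% of all genes had such a p. The log2 fold change was above 0 in 19 members and below 0 in 23 (it was above 0 in 49.9% of all genes), with a median of -0.023 beside -0.00056 over all genes. Summed over the 42 genes, the level was 7112 ± 132 CPM in libraries labelled cKO and 7091 ± 155 CPM in 5XFAD (n = 5 each).

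The intervals show how large a difference these libraries leave room for. For 32 of the 42 members the 95% interval of the log2 fold change lay between -0.5 and 0.5, which was the case for 27.3% of all genes, many of which have low counts. Among 4209 genes within the members' interquartile range of mean CPM (29.5 to 185.3 CPM), 3587 had such an interval. The count of 32 members also takes in genes below and above that range, so these shares are of unlike sets. Precision depended on the level, and the standard error was 0.068 for Gria2, at about 1079 CPM, and 0.55 for Cacng8, at 2.58 CPM. For 34 members the interval left out a change of 1.5-fold in either direction. The range plot of CPM and the plot of log2 fold changes show these levels and intervals by class.

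**Figure D1:**
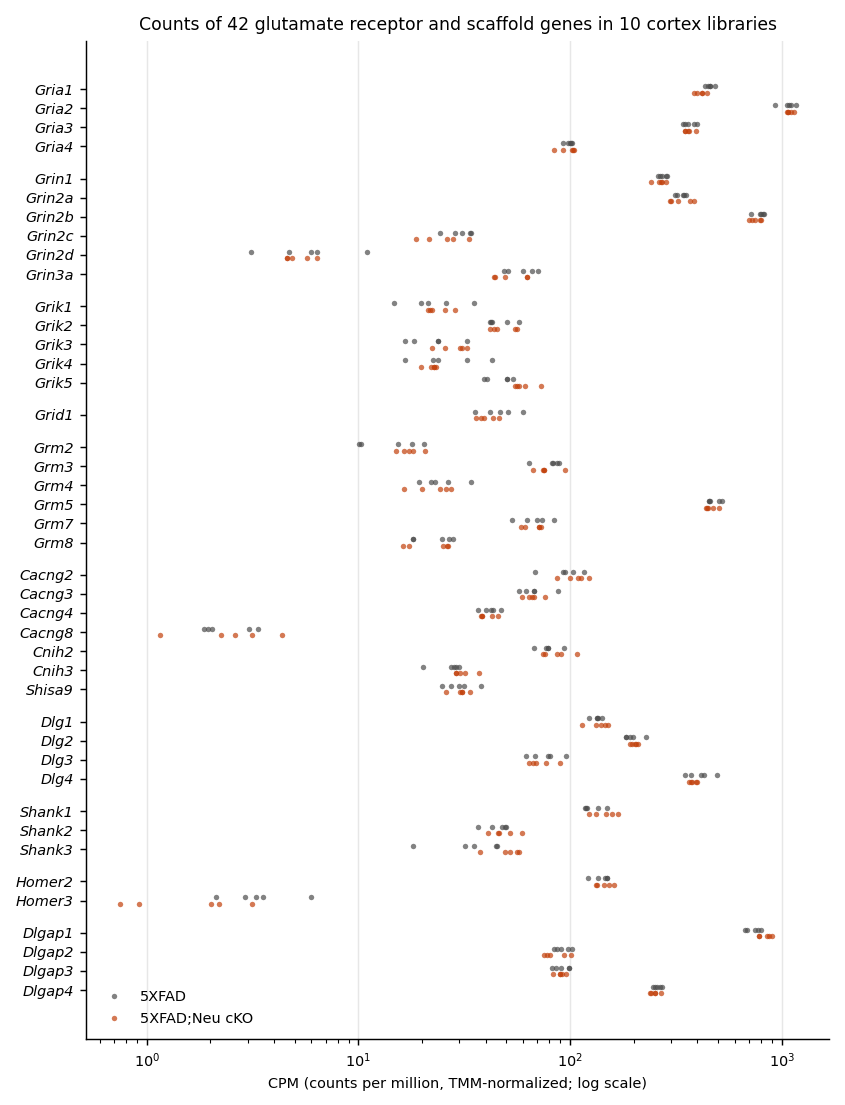
CPM (TMM-normalized, logarithmic axis) of each of the 42 genes in each of 10 libraries, 5XFAD in grey and libraries labelled cKO in orange, with gaps between classes. Levels span from 0.748 CPM (Homer3, lowest library) to 1165 CPM (Gria2, highest library), and for every gene but Grik5 the grey and orange points overlap.

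**Figure D2:**
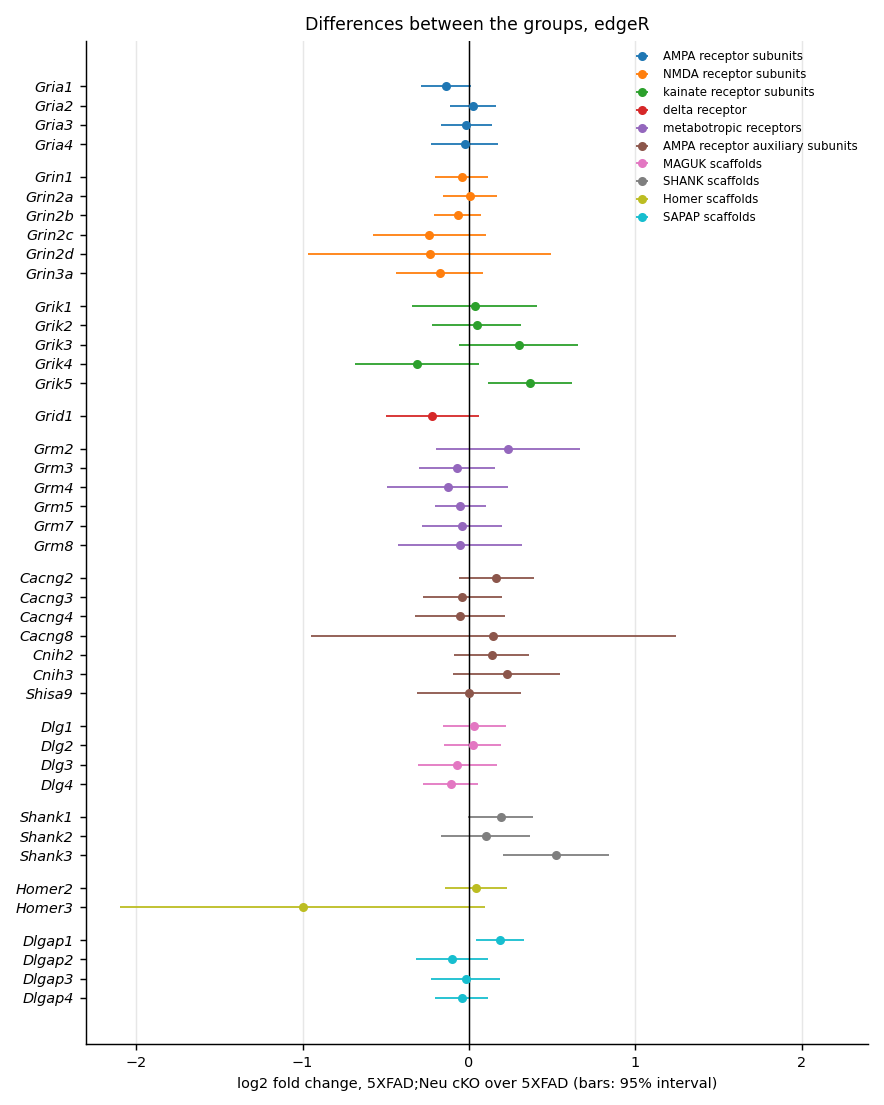
Log2 fold change of each gene, 5XFAD;Neu cKO over 5XFAD, from edgeR, with its 95% interval as a bar and colours for the classes. The interval lies above 0 for Shank3, Grik5 and Dlgap1, none lies wholly below 0, and the widest belong to Homer3, Cacng8 and Grin2d, which have the lowest counts.

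AMPA receptor subunits were the most abundant class, at 1964 ± 60.2 CPM in libraries labelled cKO and 1992 ± 115 CPM in 5XFAD. Gria2, whose edited subunit makes the channel impermeable to calcium, led with 55.4% ± 1.13 of the class's counts in libraries labelled cKO and 53.6% ± 1.83 in 5XFAD. It was at 1113, 928, 1055, 1089 and 1165 CPM in 5XFAD (replicates 1 to 5), and at 1102, 1141, 1074, 1068 and 1058 CPM in the libraries labelled cKO. The second group lay wholly inside the range of the first, whose lowest library was replicate 2 (log2 fold change 0.025, SE 0.068, edgeR adjusted p = 0.980). Without that replicate it was -0.023, and with the GC trend removed -0.0021, so no direction was shown for Gria2.

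Gria1, the subunit of activity-dependent receptor insertion, was at 456.4, 459.2, 433.6, 450.4 and 481.9 CPM in 5XFAD and at 446.1, 398.8, 422.5, 383.5 and 421.3 CPM in libraries labelled cKO. All 5 libraries of the second group were below the 5XFAD median, although the groups overlapped through replicate 1. Its log2 fold change was -0.14 (SE 0.075, edgeR adjusted p = 0.680; exact two-sided permutation p = 0.0159). Gria3 (-0.016) and Gria4 (-0.025, the subunit typical of interneurons) differed by less than their standard errors of 0.077 and 0.10. Gria3 turned to 0.017 without 5XFAD replicate 5, and Gria4 to 0.025 without replicate 3 of the libraries labelled cKO.

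The ratio of Gria1 to Gria2 counts was compared within each library, where a shared normalization factor cancels. In 5XFAD (replicates 1 to 5) it was 0.410, 0.495, 0.411, 0.414 and 0.414, and it was 0.405, 0.349, 0.394, 0.359 and 0.398 in libraries labelled cKO. The groups did not overlap, the highest of the second group being 0.405 and the lowest 5XFAD library 0.410, a narrow gap. On the log2 scale the cKO minus 5XFAD difference was -0.17 (two-sided exact permutation p = 0.00794, which is the lowest that 252 relabellings allow; adjusted p = 0.0159 over the 2 ratios examined). 5XFAD replicate 2 was far above the other 4 of its group, and without it the difference was -0.12 (exact permutation p = 0.0238). With each library's GC trend removed it was -0.16 (exact permutation p = 0.0238).

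**Figure D3:**
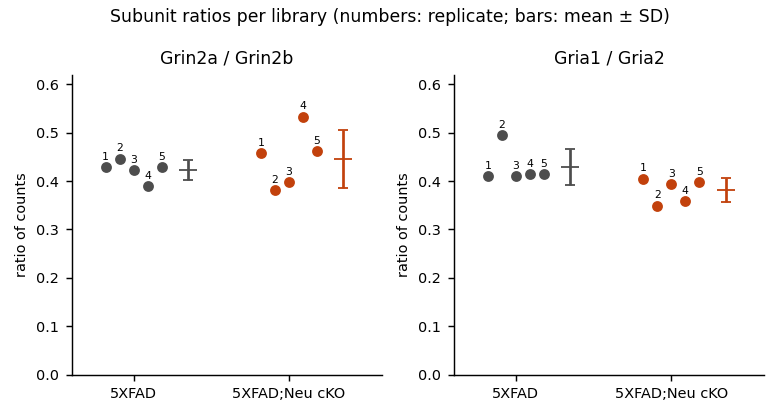
Ratio of Grin2a to Grin2b counts (left) and of Gria1 to Gria2 counts (right) in each library, with replicate numbers above the points and the mean ± SD (n = 5) beside them; both axes start at 0. The Gria1 to Gria2 ratios of the groups meet without overlapping near 0.41, with 5XFAD replicate 2 alone at 0.495, while the Grin2a to Grin2b ratios overlap.

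NMDA receptor subunits summed to 1439 ± 75.4 CPM in libraries labelled cKO and 1494 ± 36.1 CPM in 5XFAD, and 5 of the 6 had a log2 fold change below 0 (median -0.12). The class was led by Grin2b, whose GluN2B subunit dominates early in development and persists in forebrain. In 5XFAD it was at 825.6, 715.6, 814.1, 801.0 and 794.0 CPM, and in libraries labelled cKO at 803.0, 787.6, 749.4, 725.7 and 702.6 CPM. These ranges overlapped for most of their width, and 5XFAD replicate 2 was again the low one of its group (log2 fold change -0.068, SE 0.070, edgeR adjusted p = 0.905). Without that replicate the value was -0.10. Grin1, the obligatory subunit, had a log2 fold change of -0.044 (SE 0.080), and Grin2a, the subunit that joins synaptic receptors with maturation, one of 0.0054 (SE 0.082). The sign for Grin2a was negative with the replicate number as a block, with the GC trend removed and without any one of 4 of the libraries. Grin3a, which lowers calcium permeability, was at -0.18 (SE 0.13) and Grin2c, found mostly in cerebellum and in astrocytes, at -0.24 (SE 0.17). Grin3a was at -0.11 without 5XFAD replicate 2 and at -0.12 without replicate 5 of the libraries labelled cKO, and Grin2c at -0.14 without the latter. Grin2d, a subunit of interneurons, had only 320 reads in all and a log2 fold change of -0.24 (SE 0.36), which became 0.060 without 5XFAD replicate 2.

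Grin2a to Grin2b, a ratio that climbs as cortical synapses mature, was 0.428, 0.446, 0.423, 0.390 and 0.429 in 5XFAD and 0.458, 0.382, 0.398, 0.533 and 0.461 in libraries labelled cKO. The second group had both the lowest and the highest libraries. Its mean was 0.446 ± 0.0600 against 0.423 ± 0.0208 (n = 5 each), a log2 difference of 0.067 that was within the spread (exact two-sided permutation p = 0.524).

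Kainate receptor subunits were present at far lower levels than AMPA or NMDA receptor subunits, 183.4 ± 18.3 CPM in libraries labelled cKO and 167.8 ± 21.8 CPM in 5XFAD. Grik5 (ENSMUSG00000003378, chr7:24709269-24772708, minus strand) encodes the high-affinity subunit GluK5, which needs a low-affinity partner to form a channel. It was at 53.9, 39.2, 50.5, 50.1 and 40.6 CPM in 5XFAD. In libraries labelled cKO it was at 56.3, 72.8, 61.2, 57.7 and 55.0 CPM. The groups did not overlap, the single such case among the 42 members, whereas 1.3% of all genes had groups that did not overlap and 0.576% were separated in this direction. The log2 fold change was 0.37 (SE 0.13, 95% interval 0.11 to 0.62, edgeR unadjusted p = 0.00551, adjusted p = 0.370; exact two-sided permutation p = 0.00794, the smallest possible). It ranged from 0.29 to 0.42 as single libraries were left out. Exons of Grik5 overlap Zfp574 on the opposite strand, which had 858 reads to the 3156 of Grik5 and a log2 fold change of -0.039. The strand setting of the counting is not named in the sources used here, so reads of such pairs could be mixed.

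The other kainate subunits differed in sign, and none had an unadjusted p under 0.05. Grik3 was at 28.3 ± 4.20 CPM in libraries labelled cKO and 23.0 ± 6.24 CPM in 5XFAD (log2 fold change 0.30, SE 0.18), and the second high-affinity subunit, Grik4, at 22.2 ± 1.46 and 27.7 ± 10.1 CPM (-0.31, SE 0.19). For Grik4 the 5XFAD libraries ran from 16.7 to 42.6 CPM, a range that held all 5 libraries of the other group, and without 5XFAD replicate 5 its log2 fold change was -0.11. Grik3 was at 0.46 without 5XFAD replicate 4. Grik2 and Grik1, low-affinity subunits that form channels alone, were at 0.048 (SE 0.13) and 0.033 (SE 0.19), and both turned negative when single libraries were left out. The delta receptor gene Grid1, whose product acts as an organizer of synapses, had 40.5 ± 4.01 CPM against 47.1 ± 9.24 CPM (log2 fold change -0.22, SE 0.14; -0.12 without 5XFAD replicate 1).

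Metabotropic receptors summed to 670.0 ± 31.1 CPM in libraries labelled cKO and 692.5 ± 51.8 CPM in 5XFAD. Grm5, the group I receptor that couples to phospholipase C and binds Homer, supplied 69.1% ± 1.27 and 69.3% ± 1.24 of these counts. It was at 525.4, 455.2, 458.3, 507.6 and 451.8 CPM in 5XFAD and at 475.6, 504.0, 446.2, 447.8 and 441.4 CPM in libraries labelled cKO. The ranges overlapped from 451.8 to 504.0 CPM, with the lower values of both groups close together (log2 fold change -0.051, SE 0.075, edgeR adjusted p = 0.956). Of the group II receptors, which lower release through inhibitory G proteins, Grm2 was at 0.23 (SE 0.22) with 17.5 and 14.8 CPM, and Grm3, also an astrocyte gene, at -0.070 (SE 0.11) with 77.3 and 81.0 CPM. Grm2 was at 0.13 without 5XFAD replicate 2, 0.37 without replicate 4 and 0.12 without replicate 5. The group III receptors of axon terminals, Grm4, Grm7 and Grm8, had log2 fold changes of -0.13, -0.041 and -0.054, each smaller than its standard error, and each turned positive when a single library was left out.

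Auxiliary subunits of AMPA receptors had 5 of 7 log2 fold changes above 0 and a median of 0.14, the most positive of the classes with more than 3 genes. None had an unadjusted p under 0.05, and the median fell to 0.049 without replicate 3 and to 0.053 without replicate 4 of the libraries labelled cKO. Cacng2, which encodes stargazin, the TARP that carries AMPA receptors to PSD-95, was at 103.5, 95.03, 92.4, 116.5 and 68.0 CPM in 5XFAD and at 100.4, 87.2, 108.8, 112.9 and 123.4 CPM in libraries labelled cKO. Only the lowest and the highest values lay outside the common range (log2 fold change 0.16, SE 0.11, edgeR adjusted p = 0.817), and without 5XFAD replicate 5, the lowest, the value was 0.067. Cnih2 and Cnih3, the cornichons that slow AMPA receptor closing, were at 0.14 (SE 0.11) and 0.23 (SE 0.16). Cnih2 was at 0.049 without replicate 3 of the libraries labelled cKO, and Cnih3 at 0.13 without 5XFAD replicate 3. For Cnih3 all 5 libraries labelled cKO were above the 5XFAD median (31.4 ± 3.46 against 27.0 ± 3.93 CPM; exact permutation p = 0.0556). The TARPs Cacng3 and Cacng4 were at -0.040 and -0.052 with standard errors of 0.12 and 0.14, and Shisa9, which modifies desensitization, was at 0.00075 (SE 0.16). Cacng8, the TARP most abundant in hippocampus, was at 2.704 ± 1.18 and 2.45 ± 0.703 CPM with 146 reads in all (0.15, SE 0.55), fewer than the 189 of Gm44257, whose exons overlap it on the opposite strand. Exons of Cnih2 overlap Yif1a in the same way (1012 reads to 4920).

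MAGUK scaffolds summed to 793.1 ± 21.8 CPM in libraries labelled cKO and 821.4 ± 84.6 CPM in 5XFAD. Dlg4, the gene of PSD-95, was at 427.5, 497.4, 371.3, 417.9 and 348.5 CPM in 5XFAD and at 366.6, 395.3, 397.3, 378.1 and 372.6 CPM in libraries labelled cKO. The 5XFAD libraries spread over a wide range that contained the whole of the other group, with replicate 2 at its top (log2 fold change -0.11, SE 0.082, edgeR adjusted p = 0.845). Without 5XFAD replicate 2 the value was -0.036. Dlg1 (SAP97), Dlg2 (PSD-93) and Dlg3 (SAP102) had log2 fold changes of 0.033, 0.022 and -0.072, each below its standard error of 0.094, 0.086 and 0.12, and each changed sign when some single library was left out. Dlg2 shares exon sequence on its own strand with Gm45159 (1020 reads to 11548).

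SHANK scaffolds lie deep in the postsynaptic density, and all 3 of their genes had log2 fold changes above 0, with a median of 0.19 beside -0.00056 over all genes. Shank3 (ENSMUSG00000022623, chr15:89383826-89444464, plus strand) had the smallest p of the 42 members. It was at 45.0, 18.1, 35.2, 44.7 and 31.9 CPM in 5XFAD and at 37.4, 49.1, 55.9, 51.8 and 57.6 CPM in libraries labelled cKO. Replicate 1 of the second group lay among the 5XFAD values, its other 4 libraries lay above all of them, and 5XFAD replicate 2 was by far the lowest. The means were 50.4 ± 7.99 and 34.96 ± 11.1 CPM (n = 5 each). The log2 fold change was 0.52 (SE 0.16, 95% interval 0.20 to 0.84, edgeR unadjusted p = 0.00187, adjusted p = 0.248; exact two-sided permutation p = 0.0397). Without 5XFAD replicate 2 it was 0.36, with an edgeR adjusted p of 0.622. With all 10 libraries, the adjusted p ran over the alternatives from 0.0257, with the replicate number as a block, to 0.316, with edgeR's stricter filter on low counts. Under the block 112 of 19268 genes passed, and same-numbered libraries did not deviate together. The adjusted p of Shank3 was 0.0467 in the fit with no filter on low counts, where 0.414% of genes passed. Mitochondrial genes held 24.7%, 20.2%, 20.5%, 21.1% and 20.5% of counts in libraries labelled cKO, by replicate number, and the 5XFAD libraries had 23.5%, 24.7%, 23.3%, 25.1% and 20.9%. Replicate 1 of the libraries labelled cKO, the one among the 5XFAD values for Shank3, was also within the 5XFAD range of this share. So was replicate 4 of that group (21.1%), although its Shank3, at 51.8 CPM, lay above every 5XFAD library. In 5XFAD replicate 5, with 20.9%, Shank3 was at 31.9 CPM. With mitochondrial genes left out of the fit the log2 fold change was 0.52 (edgeR adjusted p = 0.254), and the part of what the share reflects in this result was not tested.

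Shank1, a SHANK of mature spines, was at 135.9, 149.0, 118.2, 120.2 and 119.4 CPM in 5XFAD and at 123.6, 133.0, 148.5, 168.8 and 158.7 CPM in libraries labelled cKO. All 5 libraries of the second group were above the 5XFAD median of 120.2 CPM, with 5XFAD replicates 1 and 2 inside their range (log2 fold change 0.19, SE 0.098, edgeR adjusted p = 0.647; exact permutation p = 0.103). Shank2 was at 48.8 ± 6.99 and 45.3 ± 5.52 CPM (0.10, SE 0.13; 0.025 without replicate 1 of the libraries labelled cKO). Summed, the SHANK genes had 245.7 ± 18.6 CPM in libraries labelled cKO and 208.8 ± 15.3 CPM in 5XFAD, and the sums overlapped through 5XFAD replicate 1 (230.2 CPM) and replicate 1 of the other group (220.0 CPM).

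**Figure D4:**
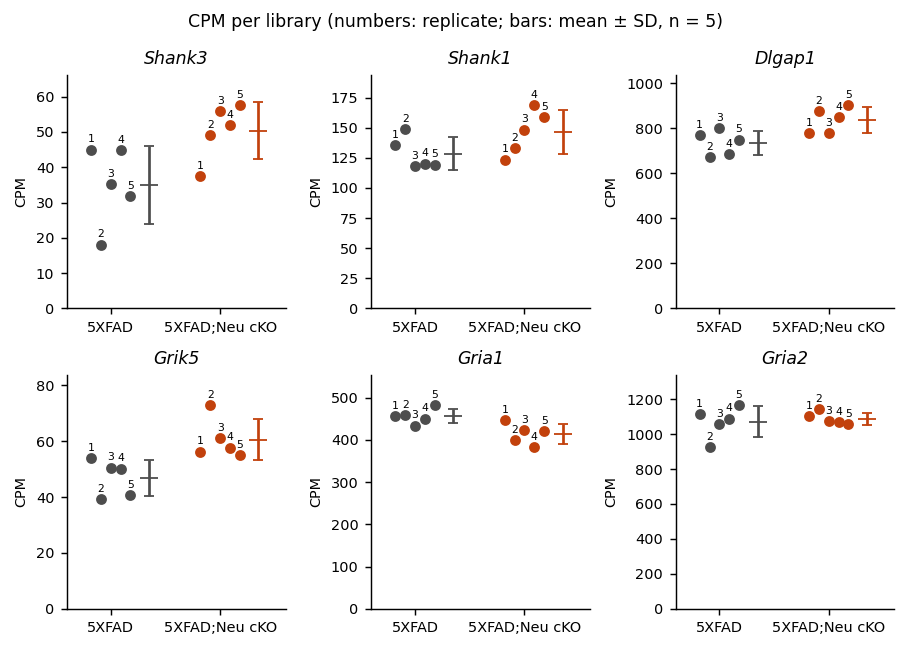
CPM of Shank3, Shank1, Dlgap1, Grik5, Gria1 and Gria2 in each library, with replicate numbers above the points and mean ± SD (n = 5) beside them; all axes start at 0. The Grik5 points of the groups do not overlap (highest 5XFAD library 53.9, lowest of the other group 55.0 CPM), the other 5 genes overlap, and 5XFAD replicate 2 is the lowest library for Shank3, Dlgap1, Grik5 and Gria2.

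SAPAP scaffolds, which bridge PSD-95 and SHANK, summed to 1265 ± 65.2 CPM in libraries labelled cKO and 1178 ± 46.3 CPM in 5XFAD. Dlgap1 (ENSMUSG00000003279, chr17:70275873-71128409, plus strand) made up 66.2% ± 1.53 of the class's counts in the first group and 62.4% ± 2.50 in the second. It was at 770.0, 671.5, 799.6, 686.7 and 749.6 CPM in 5XFAD and at 778.5, 875.5, 780.1, 851.4 and 903.5 CPM in libraries labelled cKO. A single 5XFAD library, replicate 3, reached into the other group, all of which was above the 5XFAD median. Its log2 fold change was 0.19 (SE 0.072, 95% interval 0.044 to 0.33, edgeR unadjusted p = 0.0113, adjusted p = 0.445; exact two-sided permutation p = 0.0317), and it ranged from 0.16 to 0.22 as single libraries were left out. The remaining SAPAP genes were on the other side of 0: Dlgap2 had a log2 fold change of -0.10 (SE 0.11; -0.058 without replicate 3 and -0.17 without replicate 4 of the libraries labelled cKO), Dlgap3 one of -0.020 (SE 0.10) and Dlgap4 one of -0.045 (SE 0.080).

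Homer2, a long Homer that couples metabotropic receptors to calcium stores, was at 149.4, 122.2, 150.4, 135.2 and 145.9 CPM in 5XFAD and at 152.2, 161.9, 144.2, 134.4 and 132.7 CPM in libraries labelled cKO. The groups were interleaved (log2 fold change 0.043, SE 0.093, edgeR adjusted p = 0.972). Homer3, the Homer of Purkinje cells, had 156 reads in all and means of 1.80 ± 0.980 and 3.57 ± 1.45 CPM (-0.999, SE 0.55, 95% interval -2.10 to 0.097, edgeR adjusted p = 0.695). Its exons overlap Ddx49 on the opposite strand, which had 722 reads and a log2 fold change of -0.039.

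Deviations of each gene from its own mean show how far members moved together in single libraries. Taken as the median over the genes of a class, the deviation of SHANK genes was -0.12 to 0.31 in libraries labelled cKO and -0.34 to 0.080 in 5XFAD, on the log2 scale. In 5XFAD replicate 2 the kainate genes had a median of -0.43 and the MAGUK genes one of 0.26, so that this library was low in one class and high in another. By the median over all 42 genes, no library deviated by more than 0.053 in either direction (range -0.053 to 0.053).

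**Figure D5:**
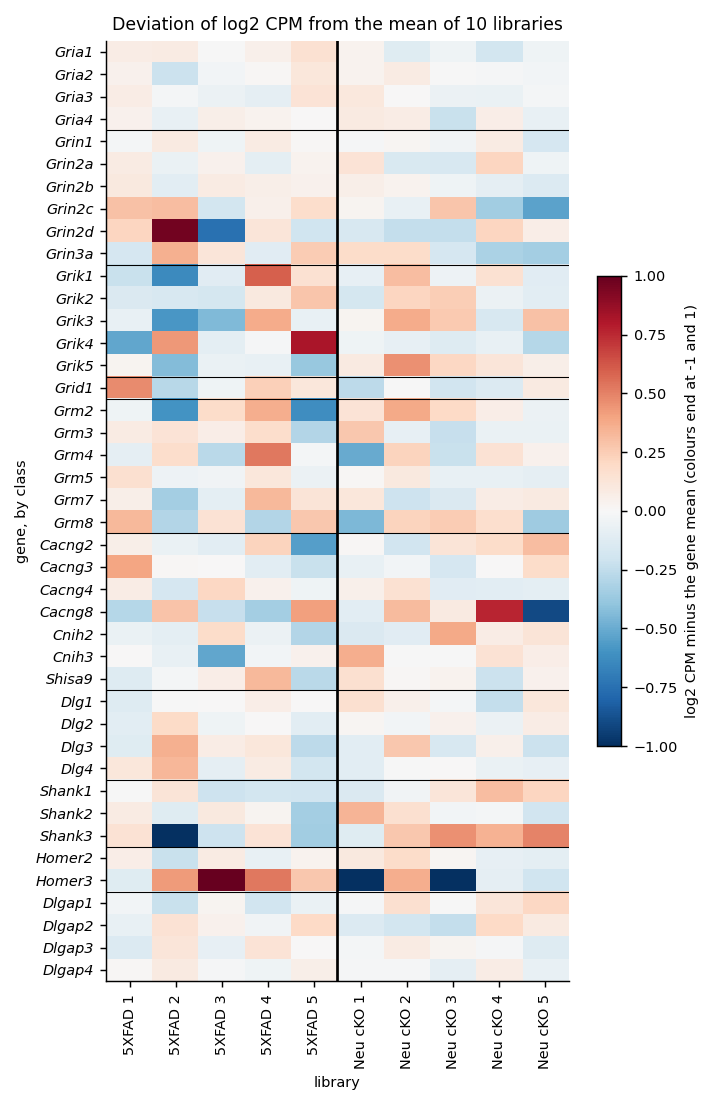
Log2 CPM of each gene (rows, by class) in each library (columns, 5XFAD to the left of the line) minus the gene's mean over 10 libraries, with colours ending at -1 and 1. The deepest colours are in Homer3, Cacng8 and Grin2d, which have few reads, in Grik4 of 5XFAD replicate 5 and in Shank3 of 5XFAD replicate 2, and the rows of the most abundant genes, such as Gria2 and Grin2b, stay pale.

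A further 50 genes of the glutamate synapse were examined in the same fit: receptor genes outside the list above, other auxiliary proteins, other postsynaptic density proteins, adhesion molecules, and glutamate transporters and enzymes. Of these, 49 had a total count over 10 (Grin3b did not), 23 with a log2 fold change above 0 and 26 below, with a median of -0.018. In edgeR, Srcin1 alone passed the adjusted threshold (1 of 49, beside 0.218% of all genes), and 5 of the 49 had an unadjusted p under 0.05 (beside 7.95%). Srcin1, which encodes the SRC inhibitor p140Cap of dendritic spines, was at 205.5 ± 28.4 CPM in libraries labelled cKO and 153.8 ± 19.7 CPM in 5XFAD (log2 fold change 0.42, SE 0.097, edgeR adjusted p = 0.0355; n = 5 each). The adjusted p was 0.0686 with edgeR's stricter filter on low counts and went up to 0.303 when replicate 5 of the libraries labelled cKO was left out. It stayed past the threshold only without 5XFAD replicate 3 and without replicate 1 of the libraries labelled cKO, the call being lost in the other 8 fits that left out a library. Lzts3, a SHANK3-binding protein, was at 42.1 ± 3.46 and 27.6 ± 6.02 CPM (0.60, SE 0.15, edgeR adjusted p = 0.0778). Its groups did not overlap, which held for 1.3% of all genes, and for 0.576% in this direction. By DESeq2, Lzts3 (adjusted p = 0.0256) and Srcin1 (adjusted p = 0.0115) passed the threshold, beside 0.379% of all genes. Both genes were put on the list with the study's own changed genes known, and are not independent evidence of a direction. Unadjusted p-values under 0.05 were also found for Pick1, which binds GluA2 (0.42, SE 0.19), and for Slc17a6, the vesicular transporter VGLUT2 of thalamic afferents (-0.39, SE 0.14), with edgeR adjusted p-values of 0.545 and 0.369. Slc17a6 was at 42.8, 60.8, 49.9, 44.9 and 54.1 CPM in 5XFAD and at 37.8, 39.0, 43.5, 39.7 and 32.2 CPM in libraries labelled cKO. Its highest library was 5XFAD replicate 2, and without it the log2 fold change was -0.32 (edgeR adjusted p = 0.675). Of the 6 markers of hypothalamus and thalamus, 4 had log2 fold changes below 0 (Hcrt, Pmch, Oxt and Avp), with 1 (Oxt) past the threshold. The other 2 were above 0, Tcf7l2 at 0.15 (SE 0.20) and Prkcd at 0.062 (SE 0.36). Sums of the 6 were 32.0 to 60.6 CPM in libraries labelled cKO and 36.7 to 133.0 CPM in 5XFAD. The part of these markers in the Slc17a6 value was not tested. The adhesion genes (10 of 10 tested, 4 above 0 and 6 below) held none.

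The genes whose log2 CPM followed Shank3 most closely over the 10 libraries were Qsox2 (Pearson r = 0.962), Trio (0.952) and Pacsin1 (0.949). For Grik5 they were Jph4 (0.957), Entpd7 (0.941) and Abhd8 (0.937). These were picked as the highest of all genes tested, the libraries differ in depth and in group, and the values are given as a description. All 6 had a log2 fold change above 0, from 0.20 (Pacsin1) to 0.76 (Qsox2), and none passed the adjusted threshold.

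GC content of the last 500 bases of the canonical transcript differed widely among members, from 30.2% for Gria2 to 65.6% for Shank1. Over all genes with a mean above 10 CPM, the median log2 fold change was 0.028 in the most GC-poor of 5 bins and -0.036 in the most GC-rich. For Grik5, with 61.4% GC, the log2 fold change was 0.39 with each library's GC trend removed, for Shank3 (41.0% GC) 0.51 and for Dlgap1 (43.4% GC) 0.19, each within 0.03 of the value without the correction.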

How the data were processed

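Cortical RNA of 10 libraries was analysed, and the proteomic, histological and single-nucleus data of the study were not used here. Before deposit, the authors removed adapter and poly(A) sequence with bbduk, mapped the single reads to GRCm39 with STAR 2.7.3a and assigned them to Ensembl genes with htseq-count (HTSeq 0.9.1 per the submitters' processing notes). The values they deposited are raw read counts per gene, unnormalized, for 53700 identifiers. A GENCODE annotation of this build named 52603 of them. The strand setting of the counting is not given in the sources used here. Reads placed on no gene were 31.3% to 39.9% of those kept in 5XFAD libraries and 34.4% to 38.2% in libraries labelled cKO, and such summary rows entered no test. Between replicates of a group, chi-square divided by its degrees of freedom was at least 5.85 in all 20 pairs, so no library was a copy of another in its group.

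As in the study, genes were kept if their total exceeded 10. Groups were compared with edgeR 4.0.16 under R 4.3.3 (glmQLFit and glmQLFTest, TMM, condition as the only term). P-values were adjusted by Benjamini-Hochberg over 19268 genes, with a threshold of 0.05. Log2 CPM used a prior count of 2, and ratios had 0.5 added to each count. Single values were also compared by exact two-sided permutation over 252 relabellings. The alternatives were DESeq2 1.42.0, edgeR with DESeq2's size factors, with filterByExpr, without any filter, with a robust fit, without mitochondrial genes and with a replicate block, and leaving out each library, and a GC correction (a lowess trend per library on the last 500 bases) was added after seeing the data. The scripts were tested on simulated counts.

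The members and lists were chosen with earlier results of these data known. Every member is named. A gene outside the members that the naming rule covers is not reported here. Values per library are given for members with an unadjusted p under 0.05, members whose groups did not overlap and the leading member of each class of 2 or more, and for Gria1 as part of a ratio. Marker lists not described in the report were as follows, with the median log2 fold change and the number past the threshold: astrocytes -0.096 (1 of 8), oligodendrocytes -0.28 (0 of 7), oligodendrocyte progenitors -0.11 (0 of 5), endothelial cells 0.035 (0 of 5), hippocampus -0.066 (0 of 5), striatum -0.028 (0 of 6), cerebellum -0.49 (0 of 3 tested) and nuclear RNA 0.14 (0 of 5). Medians of the lists in the report were 0.034 for excitatory neurons, -0.041 for inhibitory neurons, -0.045 for all neurons, -0.52 for microglia and -1.49 for hypothalamus and thalamus (1 of 6 past the threshold).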

Additional observations from a re-analysis of the deposited data

Results flagged for a closer look

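Among 88 groups of 5 values (42 genes and 2 ratios, each in both groups of libraries), 4 held a library far from the others by Dixon's criterion, where chance flags about 1 in 20. Grin2b was at 715.6 CPM in 5XFAD replicate 2, against 794.0 to 825.6 CPM in the other 5XFAD libraries. Grm3 was at 64.0 CPM in 5XFAD replicate 5, against 82.5 to 88.9 CPM in the others of the group. Cnih3 was at 20.1 CPM in 5XFAD replicate 3, against 27.5 to 29.8 CPM. The ratio of Gria1 to Gria2 was 0.495 in 5XFAD replicate 2, against 0.410 to 0.414 in the other 4 libraries. All 4 were in the 5XFAD group.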

How the results depend on the processing

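Of the 42 members, 24 kept the sign of the log2 fold change in every fit, 18 changed it somewhere and 4 of these did so with all 10 libraries present. The number past the adjusted threshold was 0 in the report's fit and 1 (Shank3) with no filter on low counts and with the replicate block; it was 0 without any single library. The number with an unadjusted p under 0.05 was 3, or 5 with the GC correction (Gria1 and Shank1 in addition), and 3 to 6 without single libraries. Over all genes, 42 passed the threshold, 73 with DESeq2, 103 with no filter, 112 with the replicate block and 26 to 72 without single libraries, the fewest without 5XFAD replicate 2.

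Same-numbered libraries did not deviate together (correlations of 0.0034, -0.059, 0.054, -0.078 and -0.055 over 8841 genes), so no pairing by number was seen. These correlations cannot exclude a weak pairing, and the labels do not say what the numbers stand for. Under the replicate block Shank3 was at 0.56 on the log2 scale (edgeR adjusted p = 0.0257), Grin2a was at -0.00075, and the Gria1 to Gria2 difference stayed at -0.17 with an exact sign-flip permutation p = 0.0625, the smallest that 5 pairs allow. The block changed no other member's call.

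Signs also reversed with the GC correction for Gria2 (-0.0021), Grin2a (-0.013), Shisa9 (-0.020) and Dlgap3 (0.0031), and for Shisa9 with filterByExpr (-0.00095) and without mitochondrial genes (-0.00043). The causes were not tested. Ranges over single libraries left out were -0.023 to 0.057 for Gria2, -0.044 to 0.017 for Gria3, -0.050 to 0.025 for Gria4, -0.051 to 0.045 for Grin2a, -0.42 to 0.060 for Grin2d, -0.090 to 0.23 for Grik1, -0.012 to 0.13 for Grik2, -0.21 to 0.0099 for Grm4, -0.12 to 0.044 for Grm7, -0.13 to 0.038 for Grm8, -0.097 to 0.066 for Cacng3, -0.095 to 0.34 for Cacng8, -0.061 to 0.093 for Shisa9, -0.0042 to 0.090 for Dlg1, -0.0024 to 0.075 for Dlg2, -0.15 to 0.014 for Dlg3, -0.0032 to 0.074 for Homer2 and -0.057 to 0.013 for Dlgap3. The median of the AMPA receptor auxiliary subunits ranged from 0.049 to 0.16. Depth limits Cacng8, Homer3 and Grin2d most, at under 7 CPM.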
